A study of Homo sapiens with 4 samples.

Results

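The miR-34 host loci are the 2 places in the human genome from which the microRNAs of the miR-34 family are made: the miR-34a locus on chromosome 1, with the genes MIR34AHG, LNCTAM34A and MIR34A, and the miR-34b/c locus on chromosome 11, with MIR34B and MIR34C. They were examined in p53 chromatin immunoprecipitation with sequencing (ChIP-seq) of HCT116, a human colorectal cancer cell line, grown as spheroids in serum-free DMEM/F12 with B27 supplement, 20 ng/ml EGF (epidermal growth factor) and 20 ng/ml bFGF (a fibroblast growth factor). One group is labelled p53-R273H and the other wildtype control (ctrl-19-7 in the titles); each had 1 ChIP library with the p53 antibody DO-1, whose epitope in the N-terminal part of p53 is shared by both proteins, and 1 input library without antibody, at passages 13 to 18. How R273H was introduced, whether a wildtype allele remains, and what ctrl-19-7 stands for are not stated in the labels. The series looked for long noncoding RNAs (lncRNAs) whose expression changed with R273H, and both genes at the chromosome 1 start site are lncRNA genes. All peaks inside or within 50 kb of the RefSeq span of either locus were taken, on the build hg38. This gave 1 of 2008 peaks of the R273H list and 1 of 2059 peaks of the wildtype list, and both lay at the miR-34a locus. With 1 ChIP library per genotype nothing below has a replicate check, and no difference between genotypes was tested. Read depth is unknown from these lists, so a missing peak says only that none was listed.

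p53 is a transcription factor that binds DNA as a tetramer, on a pair of short half-sites that lie next to or near each other, and R273H replaces one of the arginines with which it touches DNA. The miR-34 genes are among the best known microRNA targets of p53. Their products repress genes of cell cycle entry, survival and stem cell behaviour, such as MYC, CDK4, CDK6, BCL2, NOTCH1 and CD44. MIR34AHG is the host transcript from which the miR-34a hairpin is cut, and LNCTAM34A, also known as GUARDIN, is a lncRNA read from the opposite strand of the same start region. The miR-34b and miR-34c hairpins lie in a common host transcript, MIR34BHG.

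The mature microRNAs are shown first, with the seed, bases 2 to 8, by which they recognise their targets, in capitals. The sequences are from RefSeq (GRCh38.p14, the assembly of hg38). The 5p arms of miR-34a and miR-34b were:
hsa-miR-34a-5p: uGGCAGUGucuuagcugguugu
hsa-miR-34b-5p: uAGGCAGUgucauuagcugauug
Further arms were:
hsa-miR-34a-3p: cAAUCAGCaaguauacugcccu
hsa-miR-34b-3p: cAAUCACUaacuccacugccau
hsa-miR-34c-3p: aAUCACUAaccacacggccagg
The family member hsa-miR-34c-5p is named only, because its sequence was missing from the source used. Its seed was therefore not compared, and nothing below says which seed MIR34C carries on this arm. Counted from the first base, the seed of miR-34b-5p is that of miR-34a-5p moved by 1 base, because miR-34b-5p has 1 more base in front of the same GGCAGUG stretch. With this offset and no gaps, 12 of 22 bases of miR-34a-5p and miR-34b-5p were the same. After the common GGCAGUGUC, miR-34b-5p has 1 more base, an A, before the similar UUAGCUG. The later bases were thus compared out of step, and this count understates their likeness. Of the mature sequences used here, which leave out miR-34c-5p, 3 carry the seed GGCAGUG, namely miR-34a-5p, miR-449a and miR-449b-5p. A further 3 carry AGGCAGU, namely miR-34b-5p, miR-449c-5p and miR-2682-5p. The miR-449 relatives are encoded together on chromosome 5:
hsa-miR-449a: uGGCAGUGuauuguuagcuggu
hsa-miR-449b-5p: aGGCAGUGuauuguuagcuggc
hsa-miR-449c-5p: uAGGCAGUguauugcuagcggcugu
Without an offset or gaps, miR-449a and miR-34a-5p had 15 of 22 bases in common. Because no gaps were allowed, this is not compared with the 12 of 22 for miR-34b-5p above.

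The DNA under the peaks is shown next, since the only peaks of either locus cover it. Each stretch runs from 250 bases before a RefSeq gene start to 50 bases past it, 5′ to 3′ on the gene's own strand. Capitals mark exact matches to the p53 half-site consensus, which is 3 purines, a C, 2 bases that are each A or T, a G and 3 pyrimidines. The consensus reads the same way on both strands, so a search of 1 strand covers both. Overlapping matches were counted separately, and a match is a description of the letters and not a site. LNCTAM34A (chromosome 1, 9181954 to 9182253, plus strand) read:
LNCTAM34A: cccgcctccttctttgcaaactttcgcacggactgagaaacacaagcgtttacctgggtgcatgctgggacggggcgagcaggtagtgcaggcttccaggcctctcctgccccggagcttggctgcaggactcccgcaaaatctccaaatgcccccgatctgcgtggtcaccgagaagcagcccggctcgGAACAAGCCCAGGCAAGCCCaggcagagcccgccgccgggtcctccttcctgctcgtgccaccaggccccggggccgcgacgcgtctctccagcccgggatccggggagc
MIR34AHG (chromosome 1, 9182289 to 9182588, minus strand) read:
MIR34AHG: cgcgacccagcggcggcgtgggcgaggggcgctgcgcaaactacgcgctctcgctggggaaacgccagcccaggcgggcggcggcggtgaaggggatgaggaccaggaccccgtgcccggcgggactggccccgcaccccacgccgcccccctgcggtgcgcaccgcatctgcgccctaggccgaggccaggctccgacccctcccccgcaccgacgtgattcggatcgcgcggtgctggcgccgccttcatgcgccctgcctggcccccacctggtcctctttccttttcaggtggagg
The start of the miR-34b/c host gene, where neither list had a peak, is given for comparison. MIR34BHG (chromosome 11, 111510352 to 111510651, plus strand) read:
MIR34BHG: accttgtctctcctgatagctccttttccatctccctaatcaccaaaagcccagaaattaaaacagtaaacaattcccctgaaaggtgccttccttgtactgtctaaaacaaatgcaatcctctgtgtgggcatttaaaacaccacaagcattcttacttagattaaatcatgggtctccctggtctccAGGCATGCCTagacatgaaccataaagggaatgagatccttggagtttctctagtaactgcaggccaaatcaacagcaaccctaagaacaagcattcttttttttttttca

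At the miR-34a locus both genotypes had a single p53 peak, and both peaks sat on the start sites of the 2 lncRNA genes rather than on the microRNA itself. In R273H cells the peak ran from 9181815 to 9182558 of chromosome 1, a width of 744 bp, with the authors' score of 1160.05. In wildtype cells it ran from 9181769 to 9182686, a width of 918 bp, with a score of 3100. The R273H peak lay wholly inside the wildtype peak, which reached 46 bp further at the lower and 128 bp further at the higher coordinate. The shared stretch was thus 744 bp, 100% of the R273H and 81.0% of the wildtype peak, and the midpoints lay 41 bp apart. Scores were given separately for each list on a scale that the sources used here do not give, so the 2 scores are not compared with each other.

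MIR34AHG starts at 9182338 and runs toward lower coordinates to 9148011, and LNCTAM34A starts at 9182204 and runs the other way to 9192086. The 2 transcripts therefore overlap head to head by 135 bp, and both peaks covered this overlap and both starts. The R273H peak held 524 bases of MIR34AHG and 355 bases of LNCTAM34A, and the wildtype peak held 570 and 483. Beyond the MIR34AHG start the R273H peak extended 220 bp and the wildtype peak 348 bp. The peak midpoints lay 17.5 bp (R273H) and 23.5 bp (wildtype) from the LNCTAM34A start. The table of genes gives gene ends and not exons, so intron or exon is not stated. The MIR34A hairpin (9151668 to 9151777, minus strand), which holds the microRNA, lies 30561 bp from the host gene's start. It was 30038 bp from the R273H peak and 29992 bp from the wildtype peak.

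**Figure D1:**
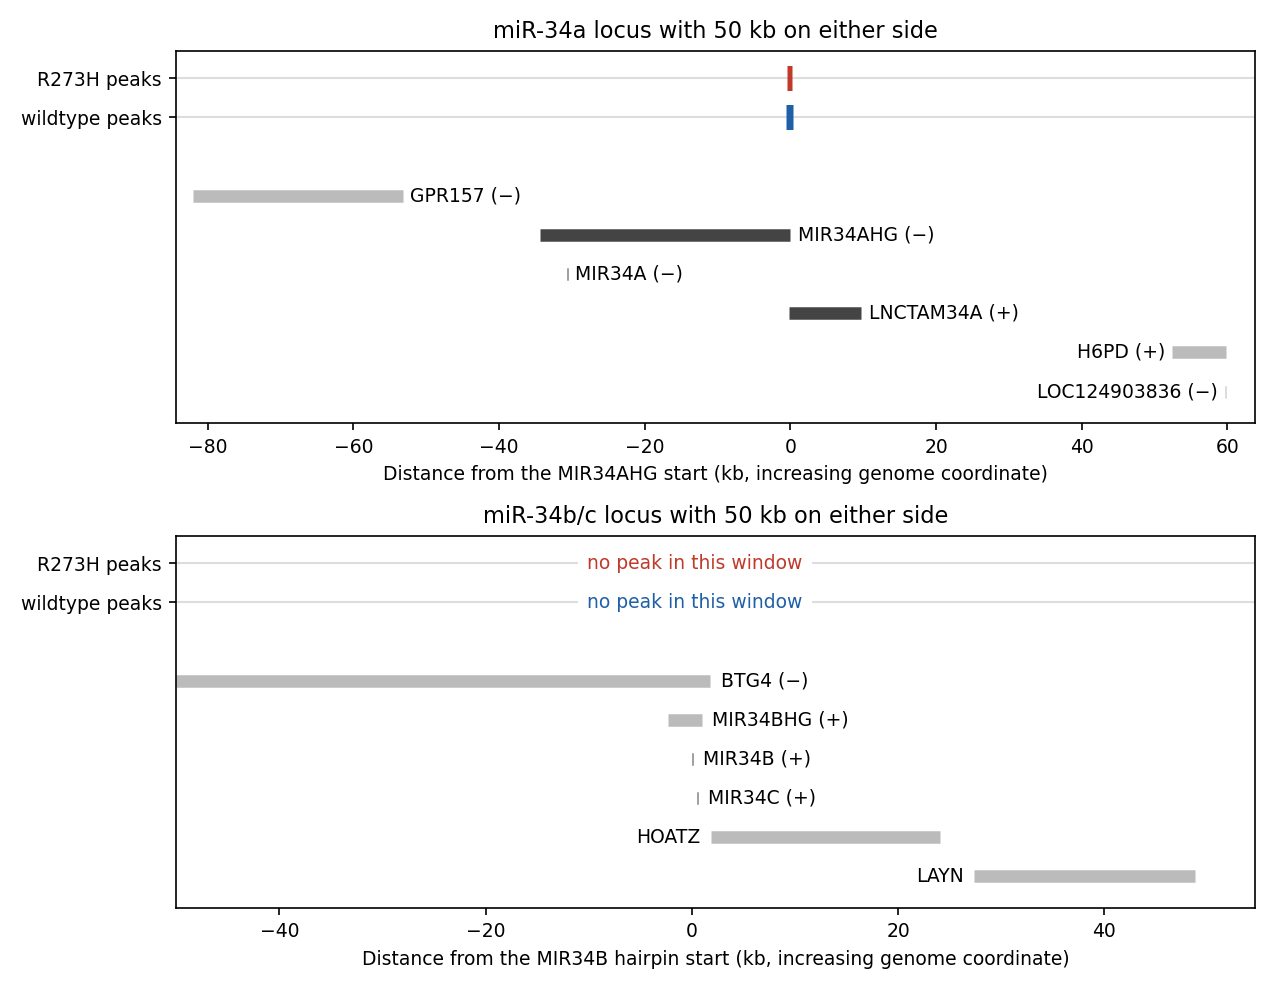
RefSeq genes and p53 peaks at both miR-34 loci, with 50 kb on either side; the x axes give the distance in kb from the MIR34AHG start (top) and from the MIR34B hairpin (bottom), dark bars are member genes, grey bars neighbours, and signs in brackets give the strand. Each list has 1 peak, at the common start region of MIR34AHG and LNCTAM34A, and none around MIR34B and MIR34C.

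A pair of exact half-sites with no base between them lay 60 to 41 bases before the LNCTAM34A start, at 9182144 to 9182163. It was inside both peaks, and its centre was 33 bp from the R273H midpoint and 74 bp from the wildtype midpoint. Both midpoints lay closer to the LNCTAM34A start than to this pair; the lists give no peak summit. All 300 bases of the LNCTAM34A stretch lay inside both peaks, whereas 270 of the 300 bases of the MIR34AHG stretch lay in the R273H peak and all 300 in the wildtype peak. The MIR34AHG stretch held no exact half-site, and the pair before LNCTAM34A lies beyond its printed end, 175 to 194 bases downstream of the MIR34AHG start.

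Such adjacent pairs are rare at gene starts. Of 35116 promoter stretches of this length in the RefSeq table, 2329 held at least 1 exact half-site, 6.63%. An adjacent pair was held by 6 stretches, 0.0171%, and a pair with 0 to 13 bases between by 10, 0.0285%. Of the 6 stretches with an adjacent pair, 4 had their start inside a peak of both lists. These were LNCTAM34A, the uncharacterised lncRNA gene LOC124901737 on chromosome 7, PTCHD4, a patched-domain protein gene, and EIF2AK3-AS1, an antisense RNA gene. Their R273H scores were 1160.05 for LNCTAM34A, 1449.27 for LOC124901737, 264.16 for PTCHD4 and 258.84 for EIF2AK3-AS1. In the wildtype list, in the same order, they were 3100, 3100, 832.87 and 129.82. PURPL, a p53-linked lncRNA gene, had its start in a wildtype peak only (238.72), and LOC105376065 had its start in neither. These genes follow from the motif and not from the naming rule.

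**Figure D2:**
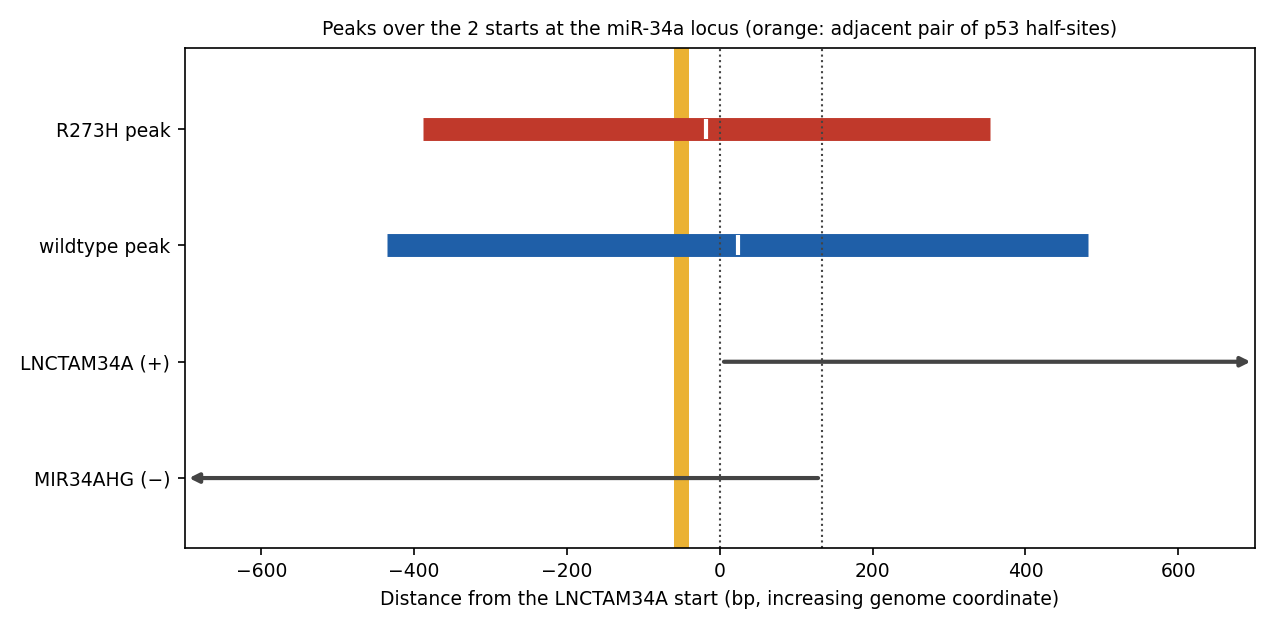
The start region at the miR-34a locus; the x axis gives the distance in bp from the LNCTAM34A start, bars are the R273H and wildtype peaks with a white tick at the midpoint, arrows the transcripts, dotted lines their starts, and the orange band the adjacent pair of half-sites. Both peaks cover both starts and the pair, and the wildtype peak of 918 bp extends past the R273H peak of 744 bp on either side.

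A gene start inside a peak was uncommon in these lists. Of the 35116 listed starts, 19 lay inside an R273H peak, 0.0541% (exact 95% binomial interval 0.0326 to 0.0845), and 38 inside a wildtype peak, 0.108% (0.0766 to 0.149). Both lists covered 15 starts, 0.0427%, and 2 of these 15 were the starts of MIR34AHG and LNCTAM34A, which share 1 peak and count as 1 place. Neighbouring starts are not independent, and the intervals cover counting error only.

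Within its own list the miR-34a peak stood near the top in both genotypes. In the R273H list it ranked 25, with 24 peaks above it, so that 1.25% of peaks scored as high or higher, against a median score of 61.9 (quartiles 54.6 to 85.9). In the wildtype list 1 peak scored higher and 22 peaks tied at 3100, this one among them, so that 1.12% scored as high or higher, against a median of 64.9 (55.3 to 114). On chromosome 1 alone it ranked 3 among 158 R273H peaks and 1 of 3 that tied for the highest of 167 wildtype peaks. The tie means that its place within the first 23 wildtype peaks cannot be told. When peaks at the ribosomal RNA genes (chromosome 21, 8 to 9 Mb) were left out, 0.587% of wildtype peaks scored as high or higher. With only peaks within 100 kb of a gene, the R273H share was 2.18%.

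The width of the miR-34a peak lay within the range of other peaks with such scores. It was 1.98 times the median R273H width of 375 bp and 2.83 times the median wildtype width of 324 bp. Outside those genes, 21 R273H peaks scored as high or higher, with widths of 537 to 1203 bp (median 721), and 12 wildtype peaks, with widths of 563 to 1223 bp (median 921.5). The miR-34a peak ranked 7 by width among them in both lists.

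**Figure D3:**
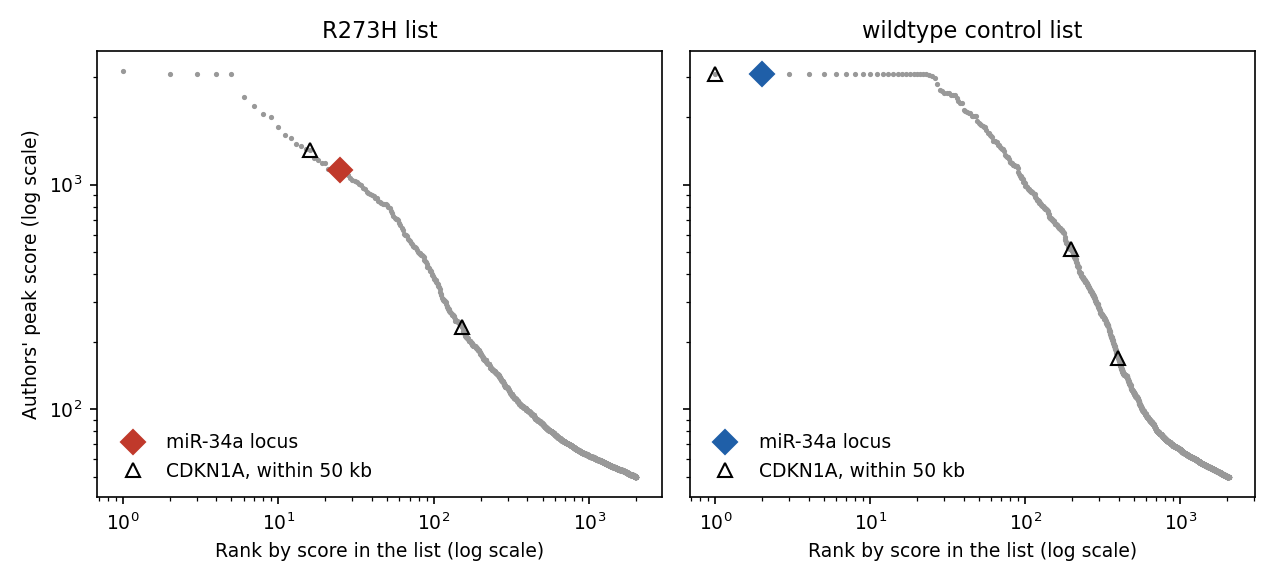
The authors' score of each peak against its rank in its own list, both on log scales; grey points are all peaks, the diamond is the miR-34a locus peak and triangles are peaks within 50 kb of CDKN1A. The diamond stands at rank 25 of 2008 for R273H, and for wildtype on the plateau of 22 peaks tied at 3100, drawn at its first place.

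CDKN1A, the gene of the cell cycle inhibitor p21, served as the reference p53 target. It had 2 R273H and 3 wildtype peaks within 50 kb, where the miR-34a locus had 1 of each in a wider window (144.1 against 110.9 kb). Its highest peaks scored 1426.71 at rank 16 (R273H) and 3105.98 at rank 1 (wildtype). The miR-34a peak stood below it in the R273H list. In the wildtype list 22 peaks, the miR-34a peak among them, tie at 3100, and the CDKN1A peak lies just above this tie. The R273H list also holds scores above 3100, up to 3204.32. What the tie stands for was not tested, and the order of the 2 wildtype peaks was not read.

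The genes most like the miR-34a locus were sought among the 51 genes with a start or end inside a peak of both lists. Likeness was the difference in the share of the list scoring as high or higher, summed over both lists. The nearest were MIR6724-3 and RNA45SN3, which share a peak (0.0996 percentage points), MIR6724-4 (0.149), RPS19 (0.196), and MIR10396A and MIR3648-2, which tied (0.349). Apart from RPS19, a ribosomal protein gene on chromosome 19, all of these lie among the ribosomal RNA genes of chromosome 21, as did 22 of the 51. For RPS19 the R273H score was 1161.48 and the wildtype score 2991.66. Outside that region the next were LOC124901737 (0.498) and CDKN1A (1.52), an addition to the rule made after these values were seen. This likeness rests on 2 lists and ties in one of them.

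The surroundings of the miR-34a peak were empty in both lists. No other peak lay within 1 Mb of the locus in either list. The median distance from a chromosome 1 peak to its nearest neighbour was 99.5 kb (R273H list) and 227 kb (wildtype list). From a gene to its nearest peak, the median over all genes was longer, 973 kb (R273H list) and 609 kb (wildtype list). Whether the empty stretch is unusual was not tested. Toward higher coordinates the next peak was 1552208 bp away for R273H and 1552183 bp away for wildtype. Both overlapped CASZ1, a zinc finger transcription factor gene, and each other, and scored 3100. Toward lower coordinates the lists differed. The next R273H peak was 5564250 bp away, overlapping MEGF6, with a score of 131.99, and the next wildtype peak was 5472667 bp away, overlapping TP73, the gene of a p53 relative, with a score of 55.65. Neither of these had an overlapping partner in the other list.

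The protein-coding neighbours of the miR-34a locus had no peak of their own. GPR157, which encodes an orphan G protein-coupled receptor, lies 18909 bp from the locus, with its start as the nearest base, and was 52713 bp from the R273H peak and 52667 bp from the wildtype peak. H6PD, which encodes a glucose-6-phosphate dehydrogenase of the endoplasmic reticulum, was 52216 and 52088 bp from them. The lncRNA gene LOC124903836 was 59405 and 59277 bp from them. Their promoter stretches, 1 for each gene, held no exact half-site. For H6PD the stretch lies around a start at 9239847, inside the gene, which begins at 9234774.

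At the miR-34b/c locus neither genotype had a peak, and the nearest ones were far away. MIR34B (chromosome 11, 111512938 to 111513021) and MIR34C (111513439 to 111513515) lie 418 bp apart on the plus strand. In the R273H list the nearest peak was 579623 bp from the locus, toward higher coordinates at 112093138 to 112093215, overlapping SDHD, a succinate dehydrogenase subunit gene. It was 78 bp wide and scored 64.1, close to the list's median of 61.9. In the wildtype list the nearest peak was 1110953 bp away, toward lower coordinates at 110401808 to 110401985, overlapping LINC02732, and scored 67.28. The next on the other side were a 129 bp R273H peak 1490322 bp away (score 51.5, 26905 bp from LOC390250) and a wildtype peak 1446432 bp away overlapping NCAM1-AS2 (72.72). None of these 4 peaks overlapped a peak of the other list. With only peaks scoring at least 100, the nearest were 8511457 bp (R273H) and 2564370 bp (wildtype) away.

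Such distances lay within the range of other microRNA genes. The median distance to the nearest peak over 1913 microRNA genes was 894 kb for R273H peaks and 593 kb for wildtype peaks. Of these genes, 61.1% lay farther from an R273H peak than MIR34B did, and 32.0% farther from a wildtype peak. The locus lies within BTG4, which encodes a cell cycle regulator of the BTG family and is read from the minus strand. MIR34BHG was 579250 bp from the nearest R273H peak and 1108617 bp from the nearest wildtype peak. HOATZ, a cilia- and flagella-associated gene, and LAYN, the layilin gene, were also over 500 kb from any peak. The MIR34BHG stretch printed above held 1 exact half-site, 61 to 52 bases before its start, and no exact pair. Its best adjacent pair had 2 mismatches, 61 to 42 bases before the start, and 0.649% of all stretches had an adjacent pair with 2 mismatches or fewer. The BTG4 stretch held no exact half-site. It lies around a start at 111512386, inside the gene, which reaches 111514725.

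Counted by gene, 3 of the 5 members had a peak within 50 kb in each list, and they were the same 3, MIR34AHG, LNCTAM34A and MIR34A. These share 1 peak per list and are not independent. Of all 59679 genes, 6.16% had an R273H peak within 50 kb, 8.84% a wildtype peak and 2.95% both. Among 18303 lncRNA genes, the type of MIR34AHG and LNCTAM34A, the shares were 5.68%, 7.50% and 2.67%. Among the 1913 microRNA genes they were 6.12%, 6.90% and 3.08%. Counted by locus, 1 of 2 miR-34 loci had a peak, and both lists marked the same one.

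Other microRNA genes linked to p53 had peaks at a share near that of microRNA genes in general. In a list of 19 such genes at 13 loci, 1 gene (5.26%) had an R273H peak within 50 kb and 1 a wildtype peak, near the 6.12% and 6.90% of all microRNA genes. The gene was MIR1204 in both, which lies in the PVT1 region. Its R273H peak scored 144.26 and lay 63 bp away, and the wildtype peak scored 612.85 and overlapped the hairpin and the R273H peak. The other 18 had none, among them MIR192, MIR194-1, MIR194-2, MIR215, MIR107, MIR143 and MIR145. The median distance to the nearest peak was 1420 kb for R273H peaks and 456 kb for wildtype peaks. For all but MIR17HG, which is a lncRNA gene, distances ran from the microRNA hairpin and not from the start of a host transcript. These counts therefore do not cover host starts that lie farther off than the window. The 3 miR-449 genes, which share the miR-34 seeds, had no peak within 50 kb. Their nearest peaks were 444 to 446 kb away (R273H) and 524 to 525 kb away (wildtype).

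**Figure D4:**
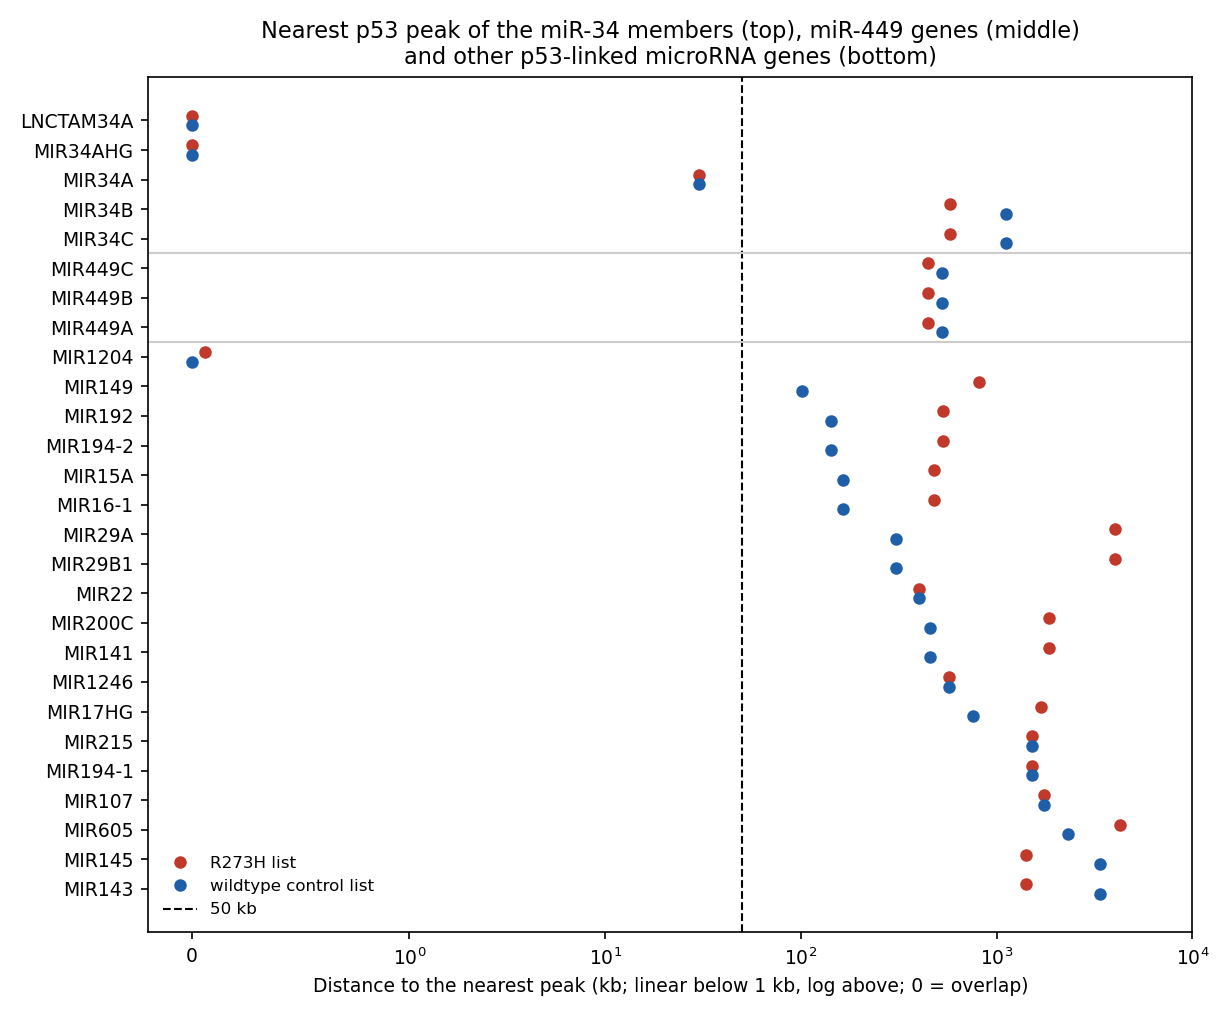
Distance in kb from each gene to its nearest peak (linear below 1 kb, log above, 0 where a peak overlaps the gene), for the 5 miR-34 members, the 3 miR-449 genes and 19 other p53-linked microRNA genes; red points are the R273H list and blue points the wildtype list. LNCTAM34A and MIR34AHG are at 0 and MIR34A near 30 kb in both lists, and of the rest only MIR1204 is left of the 50 kb line.

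Genes known as targets of the miR-34 microRNAs are repressed through their messenger RNA, and within 50 kb their share with a p53 peak was near that of all genes. Of 32 such genes, 2 (6.25%) had an R273H peak within 50 kb and 3 (9.38%) a wildtype peak, beside 6.16% and 8.84% of all genes. NOTCH1, a cell fate receptor gene, had one in both lists, with scores of 151.61 (R273H) and 434.34 (wildtype), 4462 and 4253 bp from the gene, and these overlapped. SNAI1, which encodes a repressor of E-cadherin, had an R273H peak only (77.69, 38966 bp away). LEF1, a Wnt pathway transcription factor gene (101.59), and MDM4, which encodes an inhibitor of p53 (55.24), had a wildtype peak only, overlapping the gene. The other 28, among them CDK4, CDK6, BCL2, MET, SIRT1 and CD44, had none in either list. MYC was just outside the window, at 52536 bp from an R273H and 52622 bp from a wildtype peak. These are the peaks given above for MIR1204, so they are not a further place.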

How the data were processed

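The data were 2 deposited peak lists, 1 per ChIP library, with a position, a name and the authors' score for every peak. The sources used here do not say what scale the score has, which threshold was applied or how the inputs were used. Per the submitters' processing notes, Bowtie 1.2.2, MACS, HOMER and hg38 were involved, with no role stated. Sample descriptions and list names disagree for the wildtype ChIP and R273H input samples, so the ChIP titles decided which list belongs to which genotype. Peak numbers run without gaps from 193 to 2200 (R273H) and from 228 to 2286 (wildtype). Peaks with lower numbers were not in the lists used here, so the ranks and missing peaks above do not cover them. The input libraries were not analysed here.

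Starts were made 1-based. Distances run between nearest bases and overlap needed 1 bp. Genes, starts, microRNAs and promoter stretches came from RefSeq tables of GRCh38.p14 (59679 genes on chromosomes 1 to 22, X and Y; 27305 genes with 35116 starts). All 59 genes of the lists matched by symbol. Where a share is printed with an interval, this is the exact (Clopper-Pearson) 95% interval, computed with scipy 1.17.1. The distance and motif code was tested on simulated data. The members and lists were chosen with earlier results of these data known. Named were the members, the genes within 50 kb, list genes with a peak, flanking peaks, CDKN1A and the 5 most alike genes; the alternatives are given at the end.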

Additional observations from a re-analysis of the deposited data

How the results depend on the processing

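Of 61 alternative values for 18 results, 53 stayed within the set limits and 8 moved. The single peak per list at the miR-34a locus, its overlap between the lists and the absence of peaks at the miR-34b/c locus were unchanged with windows of 10, 100 and 500 kb, with peaks scoring no less than the pooled median (63.4), with scores of at least 100 and with windows around the hairpins only, as far as each was run. The overlap also met a reciprocal 50%, midpoints within 200 bp and a gap of up to 1000 bp. Counted by gene, 2 of the 5 members had a peak within 10 kb in each list, against 3 within 50 kb, and MIR34A dropped out. This alternative was not planned beforehand and counted as within the set limits. The share of peaks scoring as high or higher was 2.18% in the R273H list with only peaks within 100 kb of a gene, and 0.587% in the wildtype list without the chromosome 21 ribosomal RNA genes. Of the 32 miR-34 target genes, 1 (3.12%) had an R273H peak within 10 kb and 4 (12.5%) within 100 kb, beside 2.36% and 10.1% of all genes. A wildtype peak lay within 10 kb of 3 (9.38%) and within 100 kb of 7 (21.9%), beside 3.48% and 14.2% of all genes; these shares were not tested. With up to 2 mismatches and 0 to 13 bases between, 2 of the 3 printed stretches (LNCTAM34A and MIR34BHG) held a pair of half-sites, against 1 with no mismatch. Of all 35116 stretches, 2747 (7.82%) held such a pair with up to 2 mismatches. The stretch of MIR34AHG, the miR-34a host gene, held none, its best pair having 4 mismatches. This mismatch limit and the score limit for the miR-34b/c distances (8511457 bp for R273H and 2564370 bp for wildtype) were chosen after seeing the data. No paired analysis was possible because each genotype had 1 ChIP library and no result came from a test. Read depth is unknown, so weak binding below the lists' lowest scores (50.02 and 50.01) could not be seen.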
